A study of Mus musculus with 9 samples.

Results

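The genes described here belong to families of enzymes that place methyl groups on histone lysines or on protein arginines, though not all members do. They are 37 of the 54532 genes in the deposited tables of the mouse hippocampus, chosen by gene symbol from the known families of these enzymes. Their values did not enter this rule, but the choice was made with earlier results of these data known. By the residue or substrate they are best known for, 6 act on H3K4, 7 on H3K9, 2 on H3K27, 5 on H3K36, 1 on H3K79 and 3 on H4K20, while 7 belong to lysine methyltransferase families with other or mainly non-histone substrates and 6 are arginine methyltransferases.

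Enzymes of these families take the methyl group from S-adenosylmethionine, which cells make from methionine, and leave S-adenosylhomocysteine, which is split to homocysteine. Methylation of H3K4 marks active promoters and enhancers, and H3K36 and H3K79 methylation lies along transcribed genes. Trimethylation of H3K9, H3K27 and H4K20 is mostly found in silent chromatin. Arginine methyltransferases modify histones and many RNA-binding proteins. Several lysine methyltransferase genes, such as Kmt2a, Kmt2d, Ehmt1 and Nsd1, are known for a role in memory or for disorders of brain development when mutated.

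RNA was sequenced from 9 hippocampus samples, in 3 groups of 3. Per the labels, the animals were male C57BL/6 mice bought at 6-8 weeks of age and housed as pairs in a cage. The Con group was kept on standard chow, the HMD group on food rich in methionine for 8 weeks, and the Bet+HMD group on the latter food for 8 weeks and then on drinking water containing betaine, a methyl donor that returns homocysteine to methionine, at 2.5% (w/v) for 2 weeks. Whether the methionine diet went on during the betaine weeks is not clear, so Bet+HMD mice may differ from the other groups in age and in time on the diet as well as in betaine. No group had betaine without the diet. The strain label of the Bet+HMD samples counts up from C57BL/6 to C57BL/8 across the replicates. The study describes its mice as female, but all 9 libraries were low in Xist, at 0 to 0.0449 FPKM, and held Ddx3y, which lies on the Y chromosome, at 12.7 to 21.2 FPKM. FPKM counts sequenced fragments relative to gene length and library depth, so levels of genes of different length can be compared. Nothing in the labels says that the libraries of a group came from separate animals, and the p-values measure the spread between these samples.

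Con and HMD appear in an earlier table, and a later table holds them again with Bet+HMD. Libraries of the later table had 16031464 to 18291952 reads assigned to genes. The Bet+HMD libraries stood apart from the others. They had a read for 25315 to 25663 genes, against 20816 to 23272 in Con and HMD, and their FPKM values summed to 249135 to 258514, against 288439 to 307899 in Con and 289606 to 292361 in HMD. Replicates within Bet+HMD were also closer to each other. Over genes, chi-square divided by its degrees of freedom was 3.1 to 4.47 for pairs of them, against 12.8 to 46.4 in the other groups of that table. Bet+HMD was added with the later table, and the betaine treatment and a difference in library preparation or sequencing cannot be told apart.

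In the later table the 37 genes together took 0.361% to 0.374% of the reads of a Bet+HMD library, 0.260% to 0.289% of a Con library and 0.261% to 0.270% of an HMD library. A member had between 23 and 5675 reads in a library. In Con mice of the earlier table, where levels are given as mean FPKM ± SD (n = 3), the most abundant member was Ehmt2, a H3K9 methyltransferase also named G9a, at 30.67 ± 2.8. It was followed by Prmt8, a membrane-bound arginine methyltransferase found mainly in brain, at 24.33 ± 2.14, and by Setd3, a histidine methyltransferase of actin, at 22.96 ± 1.65. The least abundant were Kmt5c, which trimethylates H4K20, at 1.071 ± 0.191, and Ezh2, the catalytic subunit of Polycomb repressive complex 2 in dividing cells, at 0.5547 ± 0.155. Ezh1, the counterpart of Ezh2 in cells that have stopped dividing, stood at 11.02 ± 0.841. In this order from high to low, 29 of the 36 neighbouring pairs had overlapping Con samples, so the order within the middle of the list is loose.

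The promoters of the members are shown for those that moved most clearly in the betaine comparison described further on, the 2 with the smallest adjusted p in each direction. Each sequence is the part of the 250 bases before the RefSeq start (GRCm38.p6) that lies outside the deposited gene, written 5′ to 3′ along the gene's strand, with CpG dinucleotides in capitals. Dot1l lies at chr10:80754953-80755202 (plus strand), Kmt2d at chr15:98871206-98871455 (minus strand), Prmt1 at chr7:44986569-44986670 (minus strand) and Prmt7 at chr8:106210804-106210935 (plus strand).
Dot1l: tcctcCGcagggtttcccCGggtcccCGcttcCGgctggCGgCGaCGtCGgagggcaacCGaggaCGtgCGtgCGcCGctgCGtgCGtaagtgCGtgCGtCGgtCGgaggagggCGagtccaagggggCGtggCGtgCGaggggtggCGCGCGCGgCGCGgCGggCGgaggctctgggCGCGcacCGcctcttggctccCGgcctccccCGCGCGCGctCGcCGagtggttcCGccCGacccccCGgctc
Kmt2d: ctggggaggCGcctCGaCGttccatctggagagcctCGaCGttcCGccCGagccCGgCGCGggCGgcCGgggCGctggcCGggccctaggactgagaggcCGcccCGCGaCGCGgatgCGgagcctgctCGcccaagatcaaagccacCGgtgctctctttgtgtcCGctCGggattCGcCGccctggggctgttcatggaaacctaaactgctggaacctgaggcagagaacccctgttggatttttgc
Prmt1: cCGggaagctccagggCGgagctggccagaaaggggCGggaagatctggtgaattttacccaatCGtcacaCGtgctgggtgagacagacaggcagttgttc
Prmt7: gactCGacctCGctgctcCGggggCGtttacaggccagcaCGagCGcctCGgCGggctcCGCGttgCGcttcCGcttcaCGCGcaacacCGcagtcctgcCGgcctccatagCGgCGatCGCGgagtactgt

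These stretches hold 44 CpG in 250 bases for Dot1l, 26 in 250 for Kmt2d, 5 in 102 for Prmt1 and 20 in 132 for Prmt7. RefSeq windows were matched by symbol for 27 of the 37 members, taking the listed start nearest the deposited one with no limit on distance. For Setd5 it lay 27570 bases away, in a window with 0 CpG, and for Setd1a 719 bases away. The Setd5 window, which is counted below, is therefore not before the deposited start of that gene. The full 250-base windows of these 27 held a median of 23 CpG, against 6 over all 32851 windows of the reference table. On either strand, GGGCGG was present in 19 of the 27 windows and in 32.7% of all windows, CCAAT in 11 and 33.8%, TATAAA in 1 and 12.4%, CCGGAAG in 3 and 6.91%, and TGACGTCA in 1 and 1.55%. A match is a description of the letters and not a site of a factor.

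The first comparison asked whether the methionine diet changed the level of these genes. No member passed the threshold in HMD against Con in the earlier table. Fold changes here and below are differences in log2(FPKM + 1), given with the SE of limma, which understate the change of low genes, and a call is an adjusted p under 0.05 over all genes tested. Of the 37 members, 35 passed the filter of a mean of 1 FPKM, and Ezh2 and Kmt5c did not. limma called 0 of these 35 and 0 of all 12989 genes tested (0%), and limma voom on the reads recovered from FPKM also called 0. Without adjustment 1 member, Kmt2b, had a p under 0.05, where 4.56% of all genes did. The log2 fold changes of the 35 members ran from -0.31 to 0.18, with a median of -0.01 against 0.00 over all genes (-0.0126 and -0.0038). The 95% intervals of single members had a median half-width of 0.284 and reached from -0.628 to 0.572 at their outer ends, so a change of the size of these bounds in a member could have gone without a call.

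Kmt2b methylates H3K4 and has been studied in the hippocampus for memory formation. In the earlier table it measured 5.49, 4.864 and 5.332 FPKM in Con and 4.437, 4.071 and 4.267 FPKM in HMD. All HMD samples lay under all Con samples, and the log2 fold change was -0.24 ± 0.10 (limma, adjusted p = 0.98). Groups did not overlap for 4 of the 35 members (11.4%), against 9.37% of all genes, and the other 3 were Smyd5, Setd5 and Smyd3.

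Smyd5, a SET and MYND domain enzyme, measured 5.629, 4.731 and 6.145 FPKM in Con and 4.693, 3.541 and 4.538 FPKM in HMD, a log2 fold change of -0.31 ± 0.14. Kmt5a, which monomethylates H4K20, measured 9.16, 8.784 and 8.314 FPKM in Con and 6.836, 8.529 and 7.789 FPKM in HMD, a log2 fold change of -0.17 ± 0.11. In Kmt5a the second HMD sample lay among the Con samples. In the other direction, Smyd3 measured 3.533, 3.559 and 3.11 FPKM in Con and 4.513, 3.875 and 3.601 FPKM in HMD, with all HMD samples above all Con samples and a log2 fold change of 0.18 ± 0.12. Setdb2, a H3K9 methyltransferase, measured 1.415, 1.403 and 0.884 FPKM in Con and 1.663, 1.164 and 1.779 FPKM in HMD, with overlapping groups. Prmt1 measured 16.13, 15.08 and 18.77 FPKM in Con and 16.33, 19.82 and 18.21 FPKM in HMD, also overlapping. All of these had an adjusted p of 0.98.

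The H3K27 enzymes and the abundant arginine methyltransferases were also without a call. Ezh1 measured 11.93, 10.86 and 10.27 FPKM in Con and 12.3, 12.46 and 10.86 FPKM in HMD, and its log2 fold change of 0.10 had a 95% interval from -0.156 to 0.354. Ezh2 measured 0.6333, 0.3759 and 0.6548 FPKM in Con and 0.7416, 0.8635 and 0.5811 FPKM in HMD, from 42 to 93 reads a library, and was too low to be tested. Prmt5, which makes symmetric dimethylarginine, measured 14.2, 11.78 and 13.37 FPKM in Con and 14.02, 11.3 and 13.07 FPKM in HMD. Prmt8 measured 25.73, 21.87 and 25.39 FPKM in Con and 21.76, 23.97 and 23.35 FPKM in HMD. In both arginine methyltransferase genes the groups overlapped, and the 95% intervals were -0.321 to 0.252 for Prmt5 and -0.331 to 0.183 for Prmt8.

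The second comparison set Bet+HMD against HMD, within the later table, and asked what differed after betaine. All 37 members were tested. The H3K4 methyltransferases, Dot1l, Kmt5c and most H3K36 methyltransferases were higher in Bet+HMD, and most arginine methyltransferases were lower. Of the 37, 17 rose (45.9%) and 6 fell (16.2%), where limma called 22.8% of the 13672 genes tested as higher and 25.5% as lower. With a log2 fold change of at least 1 as a second condition, 4 members rose (Kmt2a, Kmt2d, Kmt5c and Dot1l), against 6.14% of all genes, and 1 fell (Prmt1), against 2.79%. On the log2(FPKM + 1) scale Kmt2b missed this condition at 0.92, though its mean went from 4.325 to 9.065 FPKM. Kmt5c and Ezh2 reached the filter only through their Bet+HMD samples, so a rise of Kmt5c was a condition of its test. The median log2 fold change was 0.20 over the members and -0.03 over all genes.

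These counts depend on the scaling between libraries, because the FPKM values of Bet+HMD sum to less. When all libraries were brought to the same FPKM sum, as TPM does, the median of all genes moved from -0.03 to 0.14, and the split of the member calls moved from 17 higher and 6 lower to 24 higher and 2 lower. Among all genes called, the share that was higher moved from 47.2% to 69.7%. Of the 26 members then called, 19 were among the 23 called on FPKM as deposited. Some members given below as not called were therefore called with equal FPKM sums. On recovered reads (limma voom) the members split into 21 higher and 3 lower, and 57.3% of all genes called were higher. None of the called members changed its direction under any scaling. The plot of every member by sample shows both directions.

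**Figure D1:**
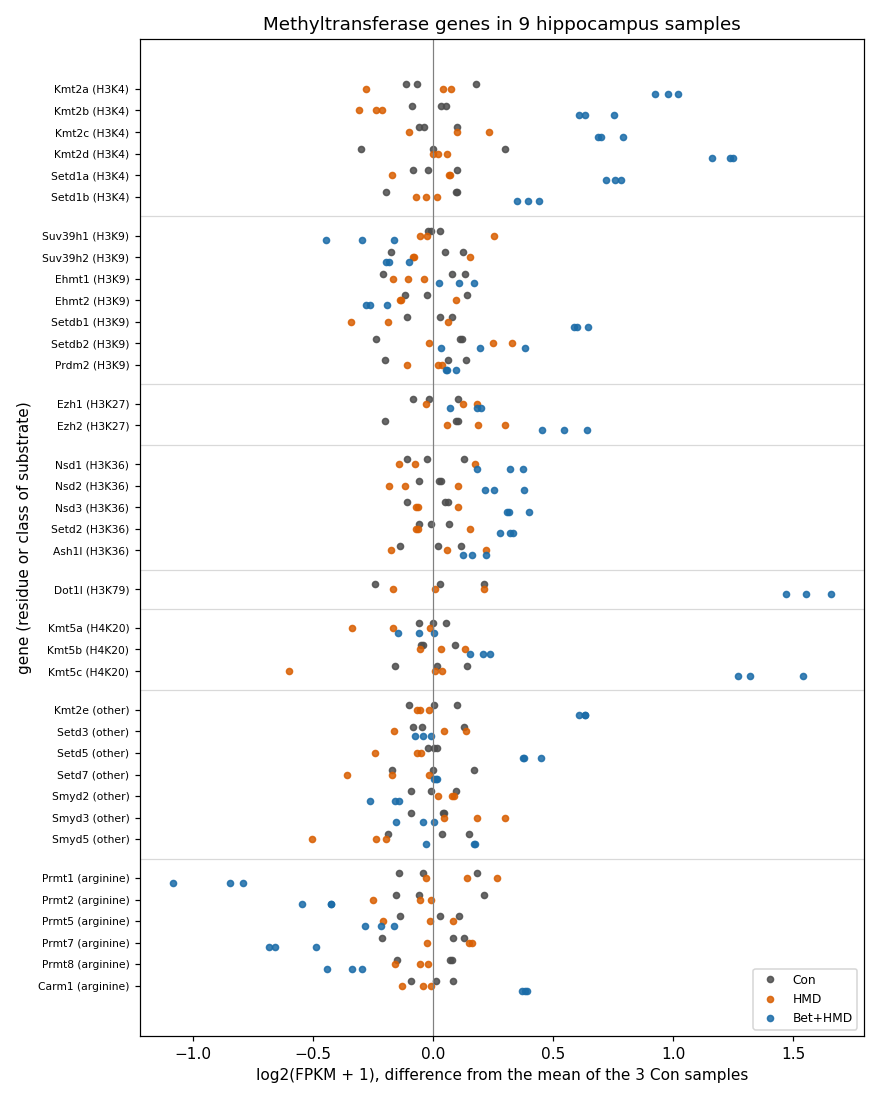
Level of the 37 methyltransferase genes in the 9 samples of the later table, as log2(FPKM + 1) minus the mean of the 3 Con samples of that gene (horizontal axis), with 1 line per gene ordered by substrate and 1 point per sample. Bet+HMD points of all 6 H3K4 genes, Dot1l and Kmt5c lie to the right of the other 6 samples, and those of Prmt1, Prmt2, Prmt7 and Prmt8 lie to the left.

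All 6 H3K4 methyltransferase genes rose, with a median log2 fold change of 0.84 (1.00 with equal FPKM sums). These enzymes are the catalytic subunits of the COMPASS family of complexes, of which Kmt2a and Kmt2b are recruited to promoters of developmental genes, Kmt2c and Kmt2d to enhancers, and Setd1a and Setd1b to active promoters in general. Kmt2d measured 4.435, 4.302 and 4.215 FPKM in HMD and 10.67, 11.41 and 11.31 FPKM in Bet+HMD. Its log2 fold change of 1.19 ± 0.069 had the smallest adjusted p of all members (limma, adjusted p = 5.05e-05). Con measured 5.434, 4.216 and 3.241 FPKM and overlapped HMD, and no sample of either group came near the Bet+HMD samples.

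Kmt2a measured 9.667, 9.426 and 7.348 FPKM in HMD and 18.2, 18.93 and 19.55 FPKM in Bet+HMD, or 1.03 ± 0.11 on the log2 scale (adjusted p = 0.000371). Kmt2b measured 4.474, 4.121 and 4.381 FPKM in HMD and 8.836, 9.697 and 8.661 FPKM in Bet+HMD, or 0.92 ± 0.076 on the log2 scale (adjusted p = 0.000167). In Con, Kmt2a measured 10.45, 8.668 and 8.364 FPKM and Kmt2b 5.589, 4.964 and 5.483 FPKM. For Kmt2b the Bet+HMD samples therefore lay above Con and not between HMD and Con. Setd1a measured 2.583, 2.036 and 2.597 FPKM in HMD and 4.786, 4.634 and 4.886 FPKM in Bet+HMD (log2 fold change 0.76 ± 0.096). Kmt2c measured 5.937, 6.602 and 5.033 FPKM in HMD and 9.396, 9.493 and 10.18 FPKM in Bet+HMD (0.65 ± 0.099 on the log2 scale). Setd1b had the smallest rise of the group, from a mean of 4.122 ± 0.155 to 5.87 ± 0.216 FPKM (SD, n = 3), or 0.42 ± 0.073 on the log2 scale. With a correction for gene length and GC content, described below, Setd1b rose by 0.27 and Kmt2c by 0.40, and both calls held. In all 6 genes every Bet+HMD sample lay above every HMD sample. This is not particular to them, because groups did not overlap for any of the 17 members called higher. Of the 14 members without a call, 8 also had groups that did not overlap. The share over all genes was not determined for this comparison, so nothing particular to the members is read from these counts.

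Dot1l, the H3K79 methyltransferase, which has no SET domain, measured 3.405, 3.973 and 4.727 FPKM in HMD and 12.7, 13.5 and 14.58 FPKM in Bet+HMD. Con measured 4.732, 3.182 and 4.043 FPKM, so HMD and Con covered the same range and Bet+HMD lay far above both. The log2 fold change was 1.54 ± 0.11 (limma, adjusted p = 0.000101). In the H4K20 group Kmt5c was called and Kmt5a and Kmt5b were not. Kmt5c measured 1.093, 0.3751 and 1.139 FPKM in HMD and 4.201, 5.059 and 4.02 FPKM in Bet+HMD, which gave 1.56 ± 0.19 on the log2 scale (adjusted p = 0.000658). The second HMD sample stood below the other 2, with 23 reads. Without it the log2 fold change was 1.35, and the call held. The HMD mean of Kmt5c was 0.869 FPKM, below the filter, which the gene passed through the Bet+HMD samples, and it was also called with no filter. Con measured 1.106, 0.8636 and 1.3 FPKM. Kmt5b, which also methylates H4K20, had a log2 fold change of 0.16 with a 95% interval from -0.0286 to 0.35. Kmt5a had 0.10 with an interval from -0.13 to 0.339. The ratio of Kmt5c to Kmt5b within a library, which no scaling between libraries can alter, was 0.717 to 0.925 in Bet+HMD, 0.0728 to 0.248 in HMD and 0.196 to 0.292 in Con.

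**Figure D2:**
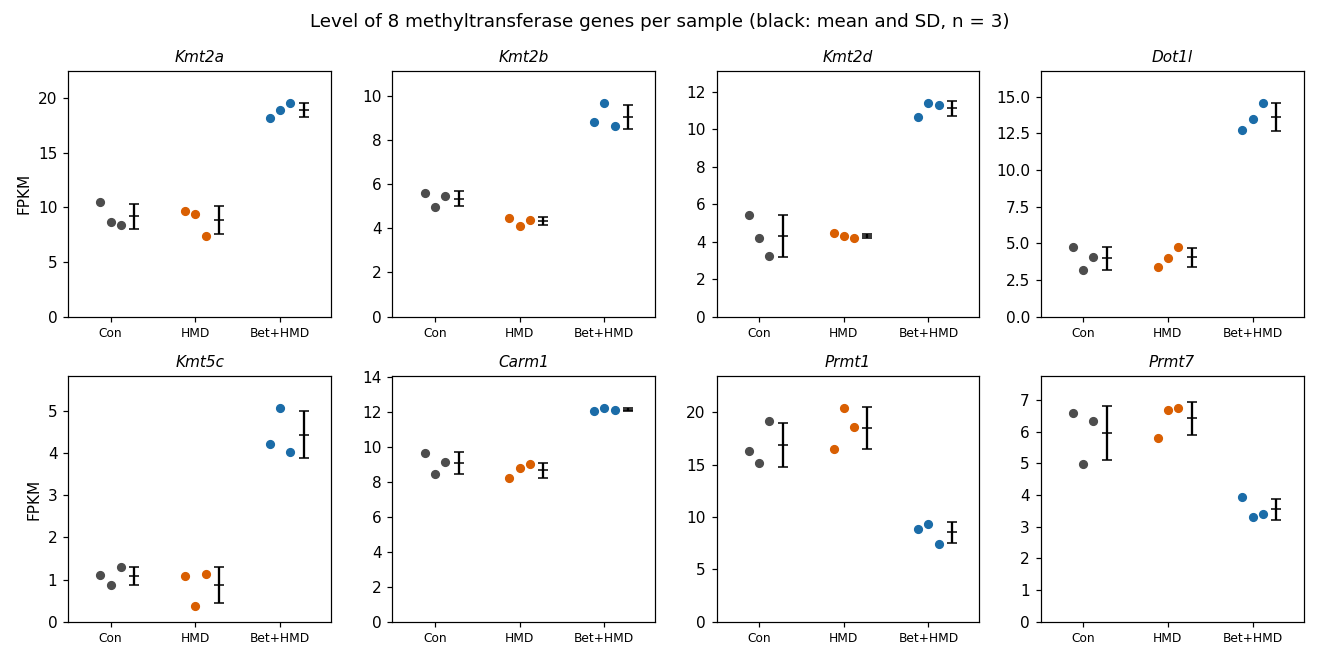
FPKM of 8 methyltransferase genes in each sample of the later table (vertical axis, from 0), by group (horizontal axis). Points are samples, and the black mark with bars is the mean and SD of 3 samples. Kmt2a, Kmt2b, Kmt2d, Dot1l, Kmt5c and Carm1 are higher in all Bet+HMD samples than in all others, and Prmt1 and Prmt7 are lower in all Bet+HMD samples.

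Of the 5 H3K36 methyltransferase genes, 4 rose by small amounts in Bet+HMD against HMD: Nsd3 by 0.35, Nsd2 by 0.35, Nsd1 by 0.31 and Setd2 by 0.30 on the log2 scale. Setd2 is the main enzyme for the trimethyl mark and follows RNA polymerase II, while the Nsd enzymes make the dimethyl mark. Ash1l did not pass the test, with 15.88 ± 2.29 FPKM in HMD and 17.43 ± 0.612 FPKM in Bet+HMD and a 95% interval of the log2 fold change from -0.116 to 0.385. Among these 4 calls 3 were lost when fold changes were corrected for gene length and GC content across all genes, where Nsd1 had a log2 fold change of 0.10, Nsd2 of 0.15 and Nsd3 of 0.16. The Setd2 call held, at 0.22. Leaving out any 1 Bet+HMD library ended the calls of Nsd1, Nsd2 and Setd2, and so did leaving out HMD replicate 1 for these 3 and HMD replicate 3 for Nsd1 and Nsd2. The log2 fold changes without 1 library ran from 0.24 to 0.40 for Nsd1, from 0.29 to 0.43 for Nsd2 and from 0.27 to 0.38 for Setd2. The Nsd3 call held in each of these fits.

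The H3K9 methyltransferase genes were mixed, with 1 higher, 1 lower and 5 without a call of 7. Setdb1, the enzyme that silences retroviral elements together with Trim28, measured 3.796, 4.333 and 5.339 FPKM in HMD and 8.123, 8.497 and 8.206 FPKM in Bet+HMD (log2 fold change 0.77 ± 0.11, adjusted p = 0.00137 by limma). In Con it measured 5.414, 5.204 and 4.641 FPKM, again below all Bet+HMD samples. Suv39h1, an enzyme of constitutive heterochromatin, measured 4.357, 4.458 and 5.617 FPKM in HMD and 3.08, 3.958 and 3.52 FPKM in Bet+HMD (-0.36 ± 0.12, adjusted p = 0.0386). The Suv39h1 call was lost with equal FPKM sums and on recovered reads, and without HMD replicate 3, Bet+HMD replicate 1 or Bet+HMD replicate 3, with log2 fold changes from -0.43 to -0.26 when 1 library was left out. Ehmt2 and its partner Ehmt1, which act as a dimer, were not called, at log2 fold changes of -0.19 (95% interval -0.387 to 0.0117) and 0.20 (0.0145 to 0.394). With the correction for length and GC content Ehmt2 was called, at -0.16 (limma, adjusted p = 0.0485). The ratio of Ehmt2 to Ehmt1 within a library was 5.27 to 6.24 in Bet+HMD, 6.87 to 8.59 in HMD and 6.44 to 8.1 in Con. The remaining 3, Suv39h2, Setdb2 and Prdm2, had log2 fold changes of -0.16, 0.01 and 0.08.

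Neither H3K27 methyltransferase gene was called. Ezh1 measured 12.37, 12.91 and 11.0 FPKM in HMD, 13.06, 11.88 and 12.92 FPKM in Bet+HMD and 12.16, 11.1 and 10.55 FPKM in Con of the later table, with overlapping groups throughout. Its log2 fold change in Bet+HMD against HMD was 0.06, with a 95% interval from -0.137 to 0.254. Ezh2 measured 0.767, 0.9088 and 0.6117 FPKM in HMD, 1.121, 1.261 and 1.419 FPKM in Bet+HMD and 0.6541, 0.3511 and 0.6654 FPKM in Con. All Bet+HMD samples were above the rest, but the adjusted p was 0.056 (limma, log2 fold change 0.36 ± 0.13). It entered the test only through the Bet+HMD samples, since its HMD mean was 0.7625 FPKM. With the correction for gene length and GC content Ezh2 was called (log2 fold change 0.35, adjusted p = 0.0438 by limma). Ezh2 was therefore 0.0858 to 0.11 times the level of Ezh1 in Bet+HMD and 0.0556 to 0.0704 times in HMD.

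Among the 7 genes with other or mainly non-histone substrates 3 rose and 1 fell. Kmt2e, a relative of the Kmt2 genes with little or no enzyme activity of its own, measured 10.46, 10.78 and 10.38 FPKM in HMD and 17.16, 17.45 and 17.46 FPKM in Bet+HMD, or 0.67 ± 0.063 on the log2 scale (limma, adjusted p = 0.000256). In Con it measured 11.74, 10.93 and 10.09 FPKM. Setd5, whose loss causes intellectual disability, rose by 0.52 ± 0.08 on the log2 scale, from 6.525 ± 0.544 to 9.781 ± 0.312 FPKM (SD, n = 3), and by 0.29 with the correction for length and GC content, where its call held. Smyd5 rose by 0.42 ± 0.11, from 4.753, 3.659 and 4.596 FPKM to 6.436, 6.457 and 5.47 FPKM. Smyd2, which methylates p53 and other proteins, measured 9.236, 9.703 and 9.653 FPKM in HMD and 8.051, 7.408 and 8.139 FPKM in Bet+HMD (-0.25 ± 0.071). The Smyd2 call was lost with equal FPKM sums, on recovered reads, with the correction for length and GC content (-0.12) and without any 1 Bet+HMD library (log2 fold changes from -0.27 to -0.21), and the Smyd5 call without Bet+HMD replicate 1 or 2 (from 0.32 to 0.49 over all libraries left out in turn). Setd3, Setd7 and Smyd3 were not called, at -0.05, 0.19 and -0.24, but Smyd3 was called with that correction, at -0.31 (limma, adjusted p = 0.0198).

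Of the 6 arginine methyltransferase genes 4 fell, 1 rose and 1 was not called, with a median log2 fold change of -0.32 (-0.13 with equal FPKM sums). Prmt1, which makes most of the asymmetric dimethylarginine of a cell, measured 16.48, 20.42 and 18.65 FPKM in HMD and 8.908, 9.31 and 7.413 FPKM in Bet+HMD. It fell by 1.03 on the log2 scale (SE 0.11, limma, adjusted p = 0.000426), and the Con samples at 16.34, 15.15 and 19.22 FPKM lay with HMD. Prmt7, which makes monomethylarginine, measured 5.816, 6.691 and 6.747 FPKM in HMD and 3.938, 3.323 and 3.395 FPKM in Bet+HMD, or -0.70 ± 0.093 on the log2 scale (adjusted p = 0.000944). Con measured 6.581, 4.986 and 6.338 FPKM for Prmt7, above all Bet+HMD samples.

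Prmt2, known as a coactivator of nuclear receptors, measured 13.5, 16.15 and 15.64 FPKM in HMD and 11.85, 11.87 and 10.82 FPKM in Bet+HMD (-0.36 ± 0.088, adjusted p = 0.0129). Prmt8 measured 21.89, 24.2 and 23.63 FPKM in HMD and 19.23, 19.82 and 17.82 FPKM in Bet+HMD (-0.28 ± 0.075, adjusted p = 0.0184). Both falls are smaller than those of Prmt1 and Prmt7, and neither passed with equal FPKM sums. The Prmt2 call was also lost without Bet+HMD replicate 3 (log2 fold changes from -0.43 to -0.31 with 1 library left out), and the Prmt8 call on recovered reads, with the correction for length and GC content (-0.16), and without Bet+HMD replicate 1 or 3 (from -0.32 to -0.24). Prmt5 measured 14.29, 11.51 and 13.33 FPKM in HMD and 11.91, 11.44 and 10.88 FPKM in Bet+HMD and was not called, with a 95% interval of the log2 fold change from -0.39 to 0.0425. In Con of the later table Prmt5 measured 14.56, 12.13 and 13.74 FPKM, Prmt2 15.58, 14.53 and 18.97 FPKM and Prmt8 25.84, 22.02 and 26.03 FPKM.

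Carm1, also an asymmetric arginine methyltransferase and a transcriptional coactivator, went the other way from Prmt1. It rose from a mean of 8.665 ± 0.422 FPKM in HMD to 12.12 ± 0.095 FPKM in Bet+HMD (SD, n = 3), a log2 fold change of 0.44 ± 0.068. Within a library the ratio of Carm1 to Prmt1 was 1.31 to 1.63 in Bet+HMD, 0.43 to 0.497 in HMD and 0.476 to 0.591 in Con. This ratio and the others between members do not depend on a common scaling of a library. The pairs were chosen after their values were seen, so the ratios are descriptions and no further support. Effects of gene length or GC content can remain in them.

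The third comparison set Bet+HMD against Con. It shares the Bet+HMD samples with the comparison before it, and its values are not a second test of the betaine libraries. Of the 37 members 36 were tested, without Ezh2, and 16 rose (44.4%) and 5 fell (13.9%), against 19.4% and 20.4% of the 13643 genes tested. With a log2 fold change of at least 1, 3 rose, against 5.77% of all genes, and 0 fell, against 2.97%. The 3 were Dot1l at 1.56 ± 0.13, Kmt5c at 1.38 ± 0.12 and Kmt2d at 1.22 ± 0.15. Kmt2a stood at 0.97 ± 0.10, with a mean of 9.161 FPKM in Con and 18.89 FPKM in Bet+HMD. With equal FPKM sums 19 members rose and 2 fell, and 18 of these were among the 21 called on FPKM as deposited. On recovered reads 18 rose and 3 fell, and with the correction for length and GC content 10 rose and 6 fell. Among all genes called, the share that was higher moved as well, from 48.8% to 73.8% with equal FPKM sums, 59.0% on recovered reads and 49.1% with the correction.

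By group, 6 of 6 H3K4 genes rose with a median log2 fold change of 0.74, of which Kmt2c had 0.72 ± 0.083 and Setd1a 0.75 ± 0.086. With the correction for length and GC content Kmt2c had 0.43, and Setd1b lost its call, at 0.24 in place of 0.39 (limma, adjusted p = 0.104). Kmt2b, lower in HMD than in Con without a call, had a log2 fold change of 0.67 ± 0.084 against Con and 0.92 ± 0.076 against HMD. Kmt2e rose by 0.63 and Setdb1 by 0.61 on the log2 scale. Prmt1 fell by 0.91 and Prmt7 by 0.61, Prmt2 had -0.46 and Prmt8 -0.36. Carm1 rose by 0.38. Setd5 rose by 0.40 and lost its call with the correction, at 0.15 (limma, adjusted p = 0.115). Nsd1, Nsd2, Nsd3 and Setd2 also lost theirs, at 0.04, 0.02, 0.10 and 0.18, and Ehmt2 gained one, at -0.20 (adjusted p = 0.0394). Smyd5, which was called against HMD, had 0.11 with a 95% interval from -0.165 to 0.379 against Con, and Smyd2 had -0.19 with an interval from -0.389 to 0.0151. Calls lost without any 1 Bet+HMD library were those of Setd1b, Suv39h1, Nsd1, Nsd2, Nsd3, Setd2, Prmt2 and Prmt8, and the number of members called was then 13 in place of 21. Suv39h1 (log2 fold change -0.30) also lost its call without any 1 Con library, Nsd1 without Con replicate 2 or 3, and Nsd2 and Prmt8 without Con replicate 1.

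**Figure D3:**
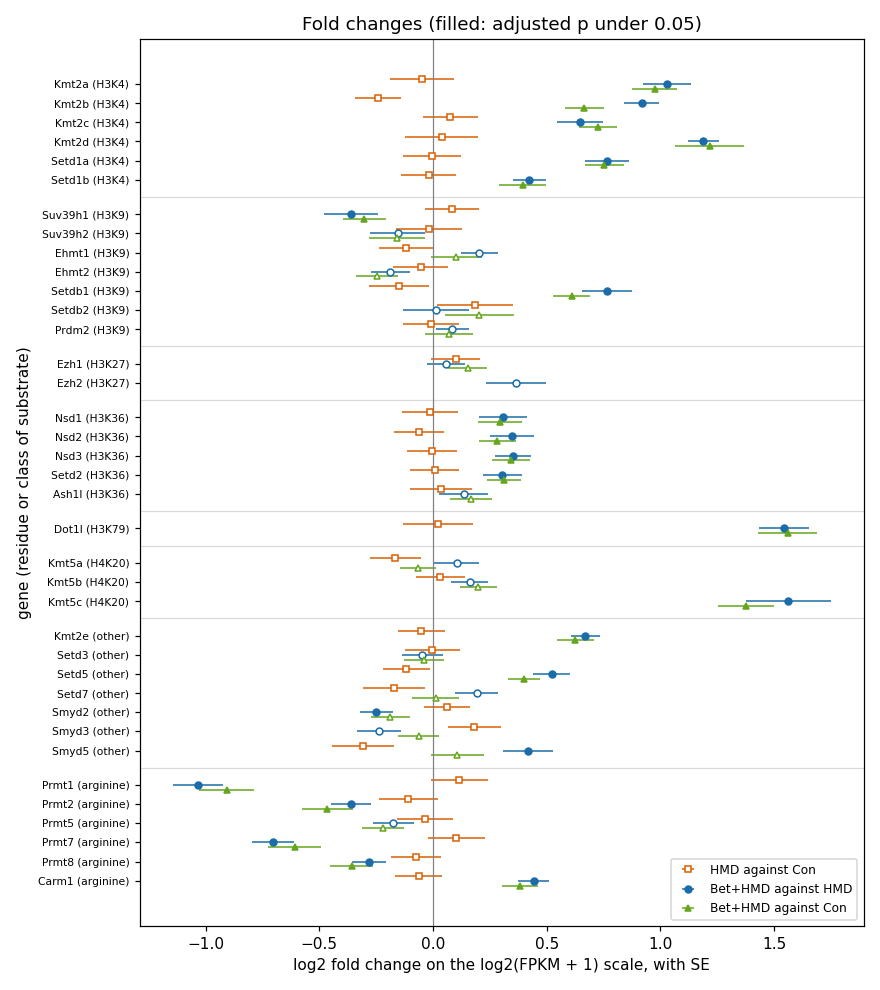
Log2 fold change of each methyltransferase gene on the log2(FPKM + 1) scale with its SE (horizontal axis) in HMD against Con (squares), Bet+HMD against HMD (circles) and Bet+HMD against Con (triangles), by gene (vertical axis). Filled symbols have an adjusted p under 0.05, a gene below the filter in a comparison has no symbol, and the squares of HMD against Con lie between -0.31 and 0.18 with none filled.

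Many of these genes are long, and the called members differed in length by direction. The 17 members that rose in Bet+HMD against HMD had a deposited gene length of 4001 to 20291 bases (median 10754), and the 6 that fell had 2717 to 6125 bases (median 3403). When all genes tested were divided in 3 equal classes, the longest class (5580 to 41300 bases) had 28.6% called higher and 15.4% lower, and 25 members lay there, with 15 higher and 1 lower. In the shortest class 20.8% of all genes were higher and 32.4% lower, and both of the 2 members there were lower. In the middle class the shares were 18.9% and 28.7%, and of 10 members 2 were higher and 3 lower. Among genes that were both in the longest class and in the highest class of GC content, 41.5% of all genes were higher, and so were 5 of the 6 members. Across the 37 members length and log2 fold change had a Spearman rho of 0.551 and a Pearson r of 0.464, and across all 13659 genes with a GC value a rho of 0.122 and an r of -0.105. The genes share the same libraries and are not independent.

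After a correction of each library for gene length and GC content across all genes, 21 members were called in Bet+HMD against HMD, 15 higher and 6 lower, and 18 of these were among the 23 called without it. The 3 others were Ezh2, Ehmt2 and Smyd3. Kmt2d then had a log2 fold change of 0.91, Kmt2a 0.83, Kmt2b 0.81, Kmt2c 0.40, Dot1l 1.44, Kmt5c 1.62, Prmt1 -0.96 and Prmt7 -0.74. Against Con 16 members were called after the correction, in place of 21. The part of length and composition in the smaller changes was not tested beyond this correction.

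**Figure D4:**
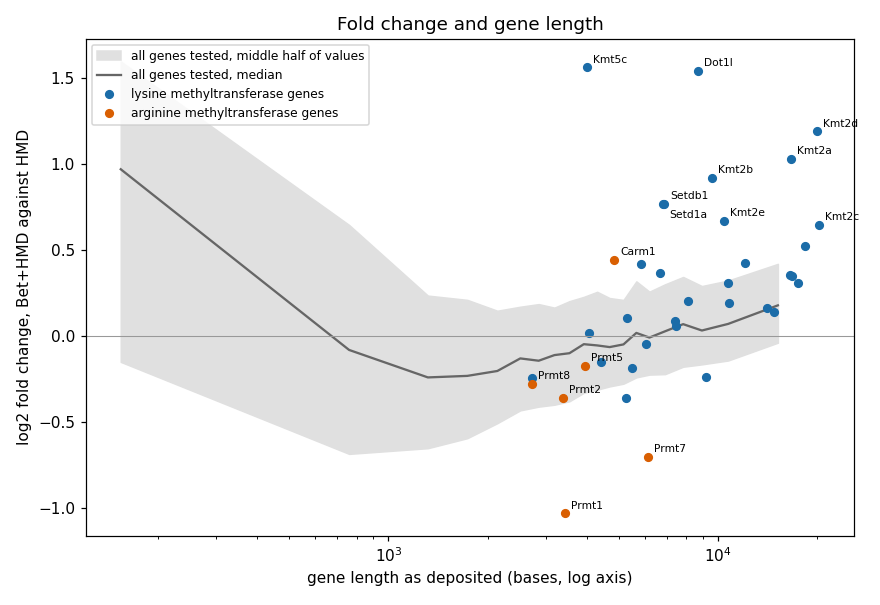
Log2 fold change in Bet+HMD against HMD (vertical axis) by deposited gene length in bases (horizontal log axis). Points are the 37 methyltransferase genes, and the line and band are the median and the quartiles of all genes tested in 20 bins of length. Kmt5c, Dot1l, Kmt2d, Kmt2a and Kmt2b lie far above the band at their length, and Prmt1 and Prmt7 far below it.

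The calls were not equally robust. In both comparisons of Bet+HMD, 10 risers (Kmt2a, Kmt2b, Kmt2c, Kmt2d, Setd1a, Dot1l, Kmt5c, Kmt2e, Setdb1 and Carm1) and the fallers Prmt1 and Prmt7 kept their call in every alternative that tested them. Over these alternatives the log2 fold change in Bet+HMD against HMD ran from 1.44 to 1.85 for Dot1l, from 0.91 to 1.45 for Kmt2d, from 0.83 to 1.21 for Kmt2a, and from -1.11 to -0.85 for Prmt1.

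Summed levels of cell type markers, in FPKM as deposited, also differed between groups of the later table. The summed level of 5 astrocyte markers was 195.2 to 196.3 FPKM in Bet+HMD, 226.7 to 248.4 in HMD and 228.3 to 234.9 in Con, and that of 4 endothelial markers was 23.24 to 24.37, 24.67 to 28.51 and 29.56 to 34.92. The 5 microglial markers summed to 46.56 to 47.92 FPKM in Bet+HMD, 49.45 to 55.99 in HMD and 53.9 to 60.63 in Con. The 7 markers of hippocampal neurons summed to 466.9 to 486.6 FPKM in Bet+HMD, 482.7 to 549.3 in HMD and 477.0 to 551.5 in Con. The 5 thalamus markers summed to 17.37 to 60.71 FPKM in HMD, 8.129 to 11.45 in Con and 16.2 to 16.93 in Bet+HMD. The 5 blood markers summed to 149.4 to 233.2 FPKM in HMD, 99.75 to 147.6 in Con and 72.17 to 122.4 in Bet+HMD, so that HMD lay above both other groups. The 5 choroid plexus markers ranged from 770.4 to 3207 FPKM within Con, 864.3 to 2568 in HMD and 935.5 to 1209 in Bet+HMD, the 5 oligodendrocyte markers from 604.9 to 1032, 675.5 to 923.4 and 681.4 to 688.9, and the 6 striatum markers from 17.27 to 27.38, 19.08 to 30.88 and 22.91 to 26.07, with overlapping groups. No marker of these lists was at 0 in any sample. All FPKM values of a Bet+HMD library summed to 249135 to 258514, against 288439 to 307899 in Con and 289606 to 292361 in HMD. The marker levels were not brought to equal FPKM sums, so a lower level in Bet+HMD cannot be told apart from this scaling. In bulk tissue fewer cells of a type and less RNA per cell cannot be told apart either. The part of cell composition in the changes of the methyltransferase genes was not tested.

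Genes that work with these enzymes were described from 4 lists in Bet+HMD against HMD. In HMD against Con none of them was called by limma, with 23 demethylases, 24 complex subunits, 7 further methyltransferases and 10 genes of the methionine cycle tested. Among 26 subunits of methyltransferase complexes 24 were tested, of which 8 rose and 7 fell. As for the other lists, these counts stand beside 22.8% higher and 25.5% lower over all genes tested, and nothing particular to a list is read from them. The calls of all 4 lists rest on FPKM as deposited. With equal FPKM sums the median log2 fold change moved from 0.125 to 0.311 over the subunits and from 0.207 to 0.377 over the demethylases. Dpy30, a core subunit of the H3K4 complexes, measured 14.94 ± 0.775 FPKM in HMD and 8.514 ± 1.01 FPKM in Bet+HMD (SD, n = 3), a log2 fold change of -0.75 against the rise of the 6 catalytic subunits. Cxxc1, the CpG-binding subunit of the Setd1a and Setd1b complexes, rose by 0.58 on the log2 scale, from 9.129 ± 0.906 to 14.16 ± 1.21 FPKM. The histone chaperones Rbbp4 and Rbbp7, which are part of Polycomb repressive complex 2 and of other complexes, had log2 fold changes of -0.61 and -0.49.

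Of 25 lysine demethylases 23 were tested, 7 rose and 2 fell. Kdm5d, a Y-linked H3K4 demethylase, rose by 0.70, Kdm6b, a H3K27 demethylase, by 0.61, Kdm4c by 0.31 and Kdm3b by 0.31 on the log2 scale. Of 11 further methyltransferases of the same families 8 were tested, with 2 higher and 2 lower. Setd4 rose by 0.69 and Prdm16 by 0.29, but Setd4, at 0.7686 FPKM in HMD, passed the filter only through Bet+HMD. Smyd4 had a log2 fold change of -0.40 and Prmt6, an asymmetric arginine methyltransferase, had -0.46. The median of the 8 moved from -0.01 to 0.14 with equal FPKM sums. Of 14 genes of the methionine cycle and methyl group use 9 were tested, 1 rose and 4 fell. Their median log2 fold change moved from -0.17 to 0.02 with equal FPKM sums, so the falls given here depend in part on the scaling. Mat2b, the regulatory subunit of the enzyme that makes S-adenosylmethionine, measured 21.45 ± 2.42 FPKM in HMD and 13.93 ± 0.435 FPKM in Bet+HMD (SD, n = 3), a log2 fold change of -0.58. Ahcy, which removes S-adenosylhomocysteine, had -0.66, Gamt, which uses S-adenosylmethionine to make creatine, -0.62, and Ahcyl1, a relative of Ahcy, -0.26. Mat2a, the catalytic subunit of the same enzyme as Mat2b, was not called, at 39.25 ± 4 and 41.32 ± 1.06 FPKM. Against Con, at 32.82 ± 1.13 FPKM, Mat2a rose by 0.32 on the log2 scale (limma, adjusted p = 0.0149). Against Con the counts were 8 higher and 6 lower of 24 subunits, 3 higher and 0 lower of 24 demethylases, 1 and 1 of 8 further methyltransferases, and 2 higher and 3 lower of 9 genes of the methionine cycle, beside 19.4% higher and 20.4% lower over all genes.

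All 37 members are protein coding, and their deposited positions equal those of GENCODE M21 on GRCm38. Of these, 25 overlap another annotated gene, 21 one on the opposite strand and 11 one on the same strand. The study's methods name a stranded library kit, but no source used here says if reads were assigned by strand. The reads of such neighbours cannot be fully told apart. Dot1l, Kmt2e, Setdb1, Carm1, Prmt7 and Prmt8 overlap genes on the opposite strand only, and Prmt2 overlaps a gene on the same strand. Kmt2a, Kmt2c, Setd1a and Smyd2 overlap genes on both, whereas Kmt2b, Kmt2d, Kmt5c, Prmt1 and Prmt5 overlap none.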

How the data were processed

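Total RNA of the hippocampus was sequenced. Per the submitters' processing notes, the authors aligned reads to mm10 with HISAT2 (2.1.0) and counted them per gene with featureCounts (1.5.0-p3). The study's methods name the same tools in other versions and no genome build. They deposited FPKM values, with the length and position of each gene (in bases, used without change), in an earlier table (Con and HMD) and a later one (all 9 samples). Columns with the prefix COL were read as Con, an inference from the prefixes HMD and Bet of the rest. FPKM times gene length and library size gave whole reads, within 0.1 read, for all values, so the reads per gene were known. The library size was inferred from the spacing of the values, and it was not a plain count of the reads on genes. In the later table it was 0.953 to 1.026 times these reads in Con and HMD, and 1.042 to 1.049 times in Bet+HMD. The deposited FPKM values therefore hold a further scaling between libraries. No pair of replicates was within sampling noise (chi-square over genes).

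The members, gene lists and tests were chosen with earlier results of these data known. The earlier table served for HMD against Con, the later one for both comparisons of Bet+HMD. Linear models were fitted with limma (3.58.1, R 4.3.3) to log2(FPKM + 1) of the 2 groups, using empirical Bayes moderation with a trend, for genes with a mean of at least 1 FPKM. Two-sided p-values were adjusted over all genes of a comparison (Benjamini-Hochberg). The study's methods name count-based tools. Here the deposited FPKM values were tested on the log scale, and the recovered reads served for an alternative. Values per sample were printed for up to 8 members a direction with the smallest adjusted p in each comparison, or the 3 with the smallest p where none passed, and always for Kmt2b, Ezh1, Ezh2, Prmt1, Prmt5 and Prmt8. Carm1, Setd5 and Setd1b are given by means, and up to 4 genes were named per related list. Mat2a and the ratios between members were chosen after their values were seen. Motifs, promoter windows and marker lists are descriptions without a test. Alternatives changed the pseudocount (0.1), the filter (none, or 5 FPKM), the scaling (equal FPKM sums as in TPM, quantile, median ratio), the moderation, the samples and genes in the fit, the table, the replicate block, the test (limma voom on recovered reads) and the libraries left out. A loess correction for gene length and GC content (span 0.3) was chosen after seeing the data. The fits were tested on simulated data with known changes. RefSeq promoter windows were read from a table on GRCm38.p6. No library of the tables was left out.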

Additional observations from a re-analysis of the deposited data

How the results depend on the processing

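The number of members called in HMD against Con was 0 in all 19 alternatives, and leaving out each library gave 0 to 0. In Bet+HMD against HMD it was 23, and from 16 to 26 in 18 alternatives, of which the libraries left out in turn gave 16 to 26. In Bet+HMD against Con it was 21, and the libraries left out in turn gave 13 to 22, with 13 without each of the Bet+HMD replicates 1, 2 and 3. The fit with the replicate number as a block gave 17 in Bet+HMD against HMD (14 higher, 3 lower) and 13 in Bet+HMD against Con (11 higher, 2 lower). Same-numbered samples belong to different groups and so to different animals. In the comparisons of Bet+HMD they did not deviate together, with a mean correlation of -0.0786 against HMD and -0.105 against Con. The numbers were not taken as pairs. In HMD against Con the mean was 0.203, with values of -0.0555, 0.346 and 0.319 for replicates 1, 2 and 3. A batch shared by number between Con and HMD was not tested beyond the block fit, which called 0 members. All other alternatives of Bet+HMD against Con gave 16 to 22. No called member changed its direction in any alternative. Of the single fold changes under all alternatives, 48 in Bet+HMD against HMD and 58 in Bet+HMD against Con lost a call and 25 and 10 gained one. Leaving out a library leaves a group with 2 samples, and the cause of calls lost in this way was not tested. The filter at 5 FPKM gave no value for low members, such as Kmt5c and Setd1a in all comparisons and Prmt7 in those of Bet+HMD. With 3 samples a group, the reads per member (23 to 5675) limit Ezh2, Kmt5c and Setdb2 most.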
